A study of Homo sapiens with 12 samples.

Results

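Interferon-stimulated genes were followed in 2 human cancer cell lines treated with selpercatinib, which blocks the tyrosine kinase RET. The set holds 45 genes, chosen by symbol from the classical interferon response with earlier results of these data known. Every 1 of them had an Ensembl identifier in both deposited tables, out of 37247 genes in all. LC-2/ad is a lung adenocarcinoma line and TPC-1 a papillary thyroid carcinoma line, and both carry a RET fusion. Each line was measured by RNA-seq as parent cells, whose treatment the labels give as none, and after 48 h in 100 nM selpercatinib. There were 3 libraries in each of the 4 groups, 12 in all. No allele or agent beyond the drug is given, and the labels do not say whether parent cells received the drug's solvent. Each group is a single line in culture, and the labels do not say whether its libraries came from separate cultures, so p-values measure only the spread between these libraries, which may be technical.

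Interferons bind receptors on the cell surface and activate the kinases JAK1, JAK2 and TYK2, which phosphorylate transcription factors of the STAT family. STAT2 and IRF9 are parts of the complex ISGF3, which binds interferon-stimulated response elements, while other STAT complexes bind gamma-activated sites. The target genes encode antiviral effectors, sensors of foreign RNA and the factors of the pathway itself, and epithelial tumour cells can express them without infection.

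The deposited values are TPM, transcript abundances scaled for gene length within a library. Read numbers cannot be had from them, and the depth of the libraries is unknown. A log2 fold change below is the treated minus the parent mean of log2(TPM + 1), which understates changes of genes near 0. A gene was called higher or lower at an adjusted p under 0.05 in limma with Benjamini-Hochberg adjustment over all genes averaging 1 TPM or more in the line. Treated and parent libraries were separated along the first principal component in LC-2/ad (68.8% of variance). In TPC-1 (38.4%) parent library 1 scored -4.93, nearer the treated libraries than parent libraries 2 and 3, which scored -23.27 and -17.66. Transcripts of mitochondrial DNA made up 9.72% to 9.83% of TPM in LC-2/ad parent libraries and 14.0% to 15.0% in treated ones, against 5.83% to 7.56% in TPC-1. NKX2-1, a factor of lung and also of thyroid epithelium, averaged 109.8 TPM in untreated LC-2/ad and was listed at 0 in TPC-1. TPC-1 parent cells had the thyroid factor PAX8 at 190.0 TPM, but TG and TSHR, which define differentiated thyroid cells, were each under 1 TPM on average in both TPC-1 groups. Other markers listed for these tissues were mixed. In LC-2/ad and TPC-1 parent cells the lung markers NAPSA (33.0 and 0.0697 TPM) and EPCAM (379.0 and 4.33 TPM) differed. KRT7 was high in both (2441.0 and 2034.0 TPM), and SFTPB averaged 0.619 TPM in LC-2/ad. The thyroid markers FOXE1 (11.6 and 9.11 TPM) and KRT19 (1732.0 and 1.86 TPM) were higher in LC-2/ad.

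Promoter sequences were read for the members because interferon acts on these genes through short motifs near their starts. RefSeq windows on GRCh38.p14, from 250 bases before to 50 after each annotated start, were found for 36 of the 45 members. They were searched on both strands for the interferon-stimulated response element, written GAAANNGAAA, and for the gamma-activated site, written TTCNNNGAA. A match is a description of letters, not a bound site. The response element was present in 61.2% of the 49 member windows and in 3.57% of all 35116 windows, and the gamma-activated site in 26.5% and 7.66%. The first 6 sequences below are the 200 bases before the start of the members with the largest rise in LC-2/ad that hold a response element there. They are printed 5′ to 3′ on the gene's strand, with the response element on either strand in capitals.
IFI27, chr14:94110536-94110735, plus strand: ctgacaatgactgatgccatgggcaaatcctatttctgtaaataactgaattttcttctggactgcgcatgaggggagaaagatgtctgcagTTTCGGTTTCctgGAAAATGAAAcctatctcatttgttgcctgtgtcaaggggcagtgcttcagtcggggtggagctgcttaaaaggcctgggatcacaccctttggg
IFIT1, chr10:89392423-89392622, plus strand: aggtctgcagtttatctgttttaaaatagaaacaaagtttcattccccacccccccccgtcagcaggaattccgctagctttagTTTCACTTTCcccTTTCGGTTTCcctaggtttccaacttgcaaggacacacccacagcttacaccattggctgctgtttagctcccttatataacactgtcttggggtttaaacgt
IFI6, chr1:27672193-27672392, minus strand: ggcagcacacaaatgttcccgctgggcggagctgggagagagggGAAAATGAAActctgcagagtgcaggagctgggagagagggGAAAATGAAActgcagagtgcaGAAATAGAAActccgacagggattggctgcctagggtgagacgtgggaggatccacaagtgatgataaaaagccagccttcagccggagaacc
ISG20, chr15:88638816-88639015, plus strand: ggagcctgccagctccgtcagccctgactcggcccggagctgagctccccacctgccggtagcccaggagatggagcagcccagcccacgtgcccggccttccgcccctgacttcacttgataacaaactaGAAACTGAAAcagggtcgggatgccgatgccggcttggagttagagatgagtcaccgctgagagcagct
RSAD2, chr2:6877577-6877776, plus strand: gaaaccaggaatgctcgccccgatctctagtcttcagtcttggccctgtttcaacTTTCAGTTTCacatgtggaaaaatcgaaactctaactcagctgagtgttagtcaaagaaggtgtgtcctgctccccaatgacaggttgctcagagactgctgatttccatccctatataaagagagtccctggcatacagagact
IFI44, chr1:78649589-78649788, plus strand: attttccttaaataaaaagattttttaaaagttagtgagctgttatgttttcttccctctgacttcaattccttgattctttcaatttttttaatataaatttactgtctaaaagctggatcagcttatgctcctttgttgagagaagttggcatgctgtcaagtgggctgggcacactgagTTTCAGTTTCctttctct
The next sequences were added after values were seen. IFITM1 fell in LC-2/ad and holds a response element, in capitals. IRF9 rose and holds a gamma-activated site, in capitals, and no exact match to the response element.
IFITM1, chr11:313840-314039, plus strand: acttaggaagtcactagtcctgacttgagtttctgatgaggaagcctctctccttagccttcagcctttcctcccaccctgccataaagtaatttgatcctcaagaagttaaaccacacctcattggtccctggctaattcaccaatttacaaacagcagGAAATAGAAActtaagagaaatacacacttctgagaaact
IRF9, chr14:24161065-24161264, plus strand: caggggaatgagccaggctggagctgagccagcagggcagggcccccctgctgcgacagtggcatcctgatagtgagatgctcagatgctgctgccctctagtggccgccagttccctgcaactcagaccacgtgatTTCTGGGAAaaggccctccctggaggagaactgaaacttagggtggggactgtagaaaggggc
The matches in IFI27 are next to each other, with their 5′ ends 108 and 95 bases before the start. A gamma-activated site begins 101 bases before the start and overlaps both. IFIT1 likewise has a pair of matches, at 116 and 103 bases. IFI6 has 3, and at 156 and 115 bases they sit in the same repeated stretch of letters. ISG20, RSAD2, IFI44, IFITM1 and IRF9 have a single match in capitals. IFITM1 has a further response element, which begins 6 bases before the start and runs past it. A gamma-activated site of IFITM1 begins 12 bases before the start. Neither is in capitals.

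In LC-2/ad, 35 of the 45 members rose after selpercatinib, against 30.6% of all 14118 genes tested, and 4 fell, against 24.4%. All 45 passed the filter on low values, and 44 were at 1 TPM or more in all 6 libraries. OAS2 was the exception, with parent values of 0.61, 0.412 and 0.74 TPM. The median log2 fold change over the members was 0.69, beside 0.07 over all genes. In 37 members all treated values lay above all parent values (35.3% of all genes), in 4 they lay below (27.6%), and in 4 the groups overlapped. Rises of at least 1 on the log2 scale were called in 16 members, against 4.59% of all genes. The members were chosen with earlier results of these data known. Their shares beside those of all genes, here and below, therefore describe the list and are not independent support. These are bulk measurements, in which more cells expressing a gene and more RNA per cell cannot be told apart. The largest adjusted p among the 35 risers was 0.0296, for IRF7, and among the 4 that fell 0.0336, for OAS3 (limma with Benjamini-Hochberg adjustment).

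**Figure D1:**
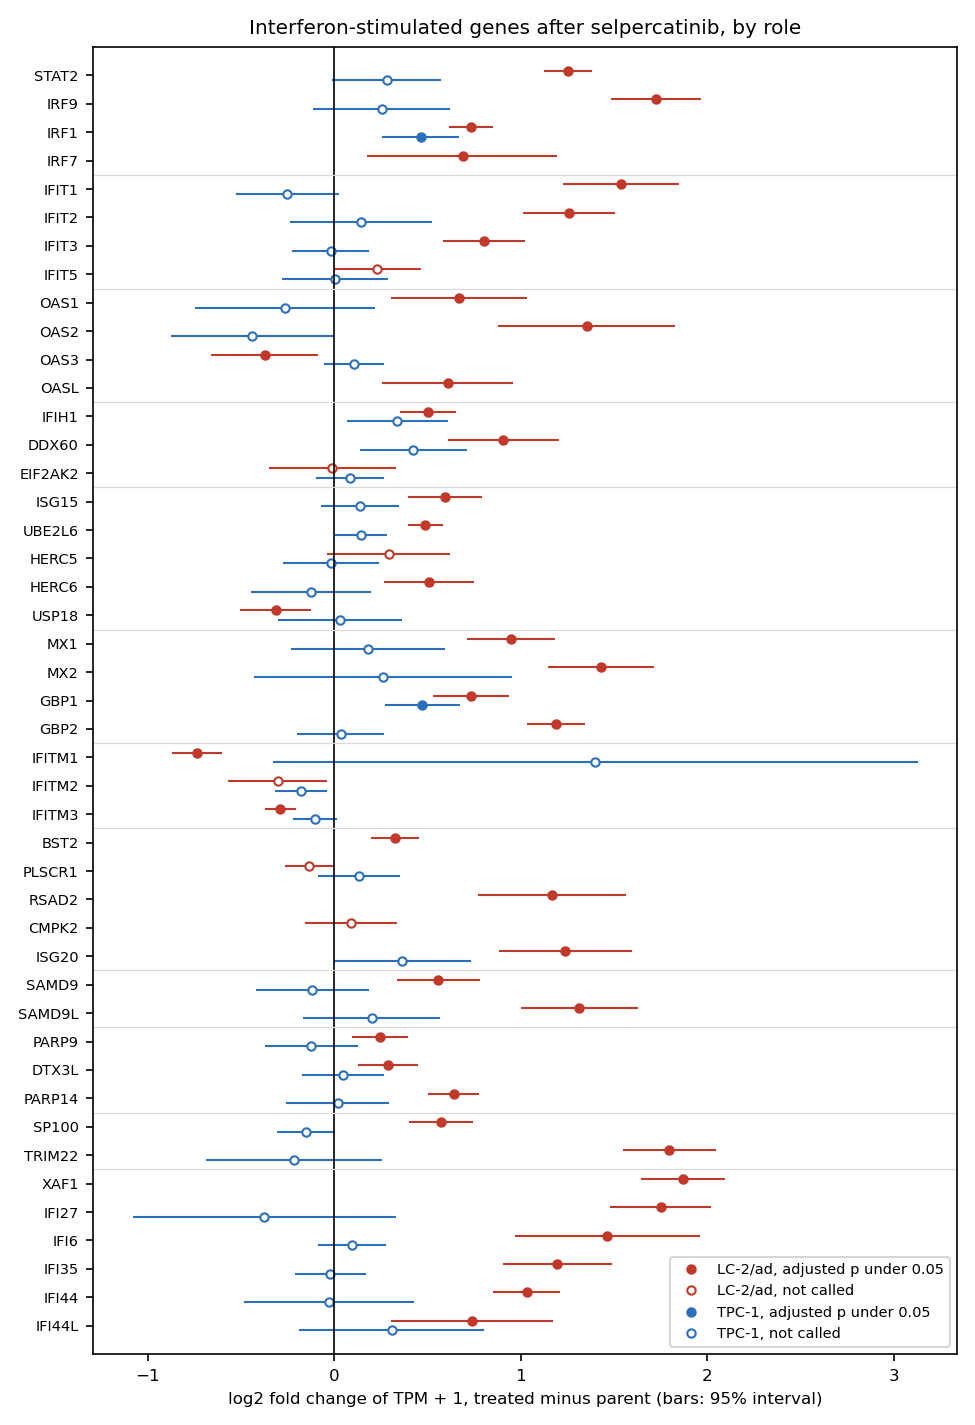
Log2 fold change of TPM + 1 after selpercatinib (x axis) for the 45 members, ordered by role (y axis, with grey lines between roles), in LC-2/ad (red) and TPC-1 (blue). Bars are 95% intervals from limma and filled points were called; 6 members have no TPC-1 point because their mean TPM was under 1. The red points lie to the right of 0 for most roles and to the left for the IFITM family, while 2 blue points, IRF1 and GBP1, are filled.

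All 4 members that act in signalling rose in LC-2/ad. STAT2, a subunit of ISGF3, was at 27.2, 26.8 and 29.0 TPM in parent libraries and at 64.5, 67.7 and 69.6 TPM in treated ones. The groups were far apart, and the log2 fold change was 1.25 ± 0.055 (SE, 3 against 3 libraries; adjusted p = 1.64e-06, limma with Benjamini-Hochberg adjustment). IRF9, the DNA-binding part of ISGF3, went from 16.0, 20.0 and 15.1 TPM to 58.0, 61.8 and 54.8 TPM. Every treated value was more than the highest parent value, with a log2 fold change of 1.72 ± 0.10 (adjusted p = 7.41e-06, limma with Benjamini-Hochberg adjustment). IRF1, a factor induced through gamma-activated sites, was at 73.7, 77.7 and 71.2 TPM and then at 117.8, 127.9 and 126.6 TPM, a log2 fold change of 0.73 ± 0.051 without overlap. IRF7, which amplifies interferon production, was low, at 4.23, 4.11 and 2.67 TPM in parent cells and at 4.48, 7.37 and 7.92 TPM after treatment. Treated library 1 lay just above the parent range, and the log2 fold change was 0.69 ± 0.22. The IRF7 call was lost when parent library 3, treated library 2 or treated library 3 was left out. It was also lost without the filter on low values and with a block for the replicate number. Adjusted p-values reached 0.0969 over all settings tried (limma with Benjamini-Hochberg adjustment).

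In TPC-1 the 2 ISGF3 subunits STAT2 and IRF9 changed by 0.28 ± 0.13 and 0.25 ± 0.16, and neither was called. Their responses were smaller in TPC-1 than in LC-2/ad, by differences of -0.97 ± 0.14 and -1.47 ± 0.21 (limma interaction with Benjamini-Hochberg adjustment).

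**Figure D2:**
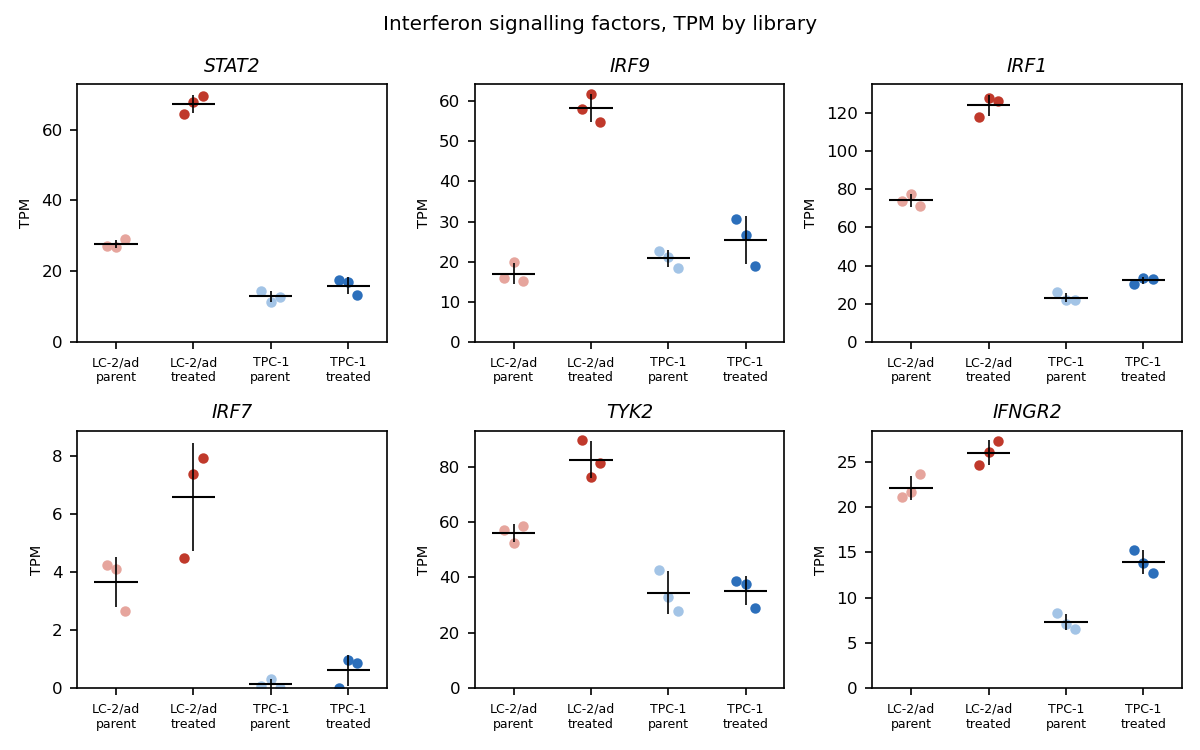
TPM (y axis, linear from 0) in each library (points) of STAT2, IRF9, IRF1, IRF7, TYK2 and IFNGR2 in the 4 groups, with the mean (horizontal line) and SD (vertical line). STAT2 and IRF9 are high in treated LC-2/ad libraries, at 64.5 to 69.6 and 54.8 to 61.8 TPM, and IFNGR2 in TPC-1 is at 12.7 to 15.3 TPM in treated libraries, above its parent range of 6.59 to 8.28 TPM.

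Among the IFIT proteins, which bind foreign RNA and block its translation, 3 of 4 rose in LC-2/ad. IFIT1 was at 1.02, 1.45 and 1.35 TPM in parent cells and at 5.25, 5.99 and 5.49 TPM after treatment, a log2 fold change of 1.54 ± 0.13. IFIT2 went from 3.61, 3.19 and 3.55 TPM to 9.42, 10.7 and 8.87 TPM (1.26 ± 0.10). Neither showed any overlap between the groups. IFIT3 rose by 0.80 ± 0.095 on the log2 scale, to a mean of 15.9 TPM. IFIT5 was at 5.22, 5.14 and 5.83 TPM and then at 7.04, 6.29 and 6.17 TPM. Its treated values all exceeded its parent values, but the change of 0.23 ± 0.10 was not called. The 4 genes lie within 137.3 kb of chromosome 10 (chr10:89283694-89421001, GRCh38). IFIT1, IFIT2 and IFIT3 overlap LIPA on the opposite strand, and the sources used here do not say whether reads were assigned by strand, so their values are uncertain to that extent.

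The OAS enzymes make oligoadenylates that activate RNase L. They did not move together in LC-2/ad, where 3 rose and OAS3 fell. OAS2 went from under 1 TPM in every parent library to 2.7, 4.19 and 2.43 TPM, a log2 fold change of 1.35 ± 0.20. OAS1 was at 12.7, 14.9 and 9.54 TPM and then at 17.4, 22.6 and 20.2 TPM (0.67 ± 0.16), so the groups did not overlap. OASL, which lacks synthetase activity and aids RNA sensing, went from a mean of 1.11 ± 0.0415 to 2.23 ± 0.335 TPM (SD, n = 3), a log2 fold change of 0.61 ± 0.15. OAS3 was at 16.5, 17.6 and 19.5 TPM in parent cells and at 11.1, 15.2 and 14.7 TPM after treatment. Each treated value lay below each parent value, with a log2 fold change of -0.37 ± 0.12. The OAS3 call was lost when parent library 2, parent library 3 or treated library 1 was left out. It was also lost with mitochondrial genes removed, without the filter on low values and without a variance trend. Adjusted p-values reached 0.107 over all settings (limma with Benjamini-Hochberg adjustment). OAS1, OAS3 and OAS2 are neighbours within 104.9 kb of chromosome 12 (chr12:112906777-113011723).

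Members that sense RNA rose in part. IFIH1 encodes MDA5, a sensor of long double-stranded RNA. It was at 12.5, 13.5 and 12.9 TPM in LC-2/ad parent libraries and at 18.6, 19.1 and 18.8 TPM in treated ones, a log2 fold change of 0.50 ± 0.064 with tight groups. DDX60, a helicase that promotes such sensing, went from 2.33, 2.28 and 2.76 TPM to 5.2, 6.28 and 4.99 TPM (0.91 ± 0.13). EIF2AK2, the kinase PKR that halts translation on binding double-stranded RNA, had overlapping groups. Its means were 25.7 ± 2.82 and 25.8 ± 5.68 TPM (SD, n = 3), and the interval of its log2 fold change ran from -0.35 to 0.33.

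ISG15 is a ubiquitin-like protein that is joined to other proteins through UBE2L6 and HERC5 and removed by USP18. In LC-2/ad, ISG15 was at 27.8, 32.0 and 25.5 TPM and then at 43.2, 45.3 and 41.5 TPM, a log2 fold change of 0.59 ± 0.085. The conjugating enzyme UBE2L6 went from 67.0, 64.9 and 65.2 TPM to 91.8, 94.7 and 91.2 TPM (0.49 ± 0.040). Both were separated well beyond the spread between libraries. HERC6, a relative of HERC5 next to it on chromosome 4, rose by 0.51 ± 0.10. HERC5 itself, the main ligase for ISG15 in human cells, was low, at 1.86, 1.96 and 1.98 TPM in parent cells. After treatment it was at 2.94, 2.7 and 2.17 TPM and was not called (0.29 ± 0.14). USP18, which also restrains signalling from the interferon receptor, fell from 10.8, 12.2 and 12.6 TPM to 9.37, 9.39 and 9.17 TPM. Its log2 fold change was -0.32 ± 0.082, with no overlap, and the call was lost only without parent library 3.

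All 4 GTPases of the dynamin-like group rose in LC-2/ad. MX1 and MX2, which trap viral nucleocapsids, are neighbours on chromosome 21. MX1 went from 12.9, 13.2 and 10.1 TPM to 23.4, 24.8 and 24.0 TPM, and MX2 from 3.42, 2.51 and 2.78 TPM to 8.69, 9.44 and 10.3 TPM. Neither had overlapping groups, and their log2 fold changes were 0.95 ± 0.10 and 1.43 ± 0.12. The guanylate-binding proteins GBP1 and GBP2, which attack intracellular pathogens and respond strongly to interferon gamma, are neighbours on chromosome 1. GBP2 was at 18.0, 18.6 and 19.2 TPM and then at 44.8, 46.0 and 40.3 TPM (1.19 ± 0.066). GBP1 went from 8.91, 8.49 and 9.76 TPM to 17.1, 15.0 and 15.0 TPM (0.73 ± 0.088), also without overlap.

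The IFITM family went the other way. These membrane proteins hinder the fusion of viruses with the cell, and IFITM1, IFITM2 and IFITM3 lie within 19.9 kb of chromosome 11 (chr11:307631-327537). IFITM1 was at 106.8, 93.6 and 97.6 TPM in LC-2/ad parent libraries and at 57.7, 61.5 and 58.4 TPM in treated ones. The treated values were all below the lowest parent value, with a log2 fold change of -0.735 ± 0.058 (adjusted p = 2.94e-05, limma with Benjamini-Hochberg adjustment), a fall called in all 14 other settings. IFITM3 had the highest level of all members and fell from 567.0, 535.5 and 553.9 TPM to 435.3, 455.5 and 464.1 TPM. The groups did not overlap, and the log2 fold change was -0.29 ± 0.036. IFITM2 was at 23.0, 19.0 and 22.6 TPM and then at 15.3, 20.0 and 16.7 TPM, with overlapping groups and a change of -0.30 ± 0.11 that was not called. The members are near copies of each other and the annotated spans of IFITM1 and IFITM2 overlap on the same strand, so the division of reads between them is uncertain.

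Other membrane and nucleotide effectors differed among themselves. BST2, or tetherin, holds budding virions on the membrane and went from 85.8, 81.2 and 87.1 TPM to 99.4, 108.1 and 112.4 TPM in LC-2/ad, a rise of 0.33 ± 0.056 on the log2 scale. RSAD2, or viperin, makes a chain-terminating nucleotide from CTP and was at 1.41, 2.46 and 1.42 TPM and then at 4.69, 5.31 and 5.35 TPM (1.17 ± 0.17). Neither gene had overlapping groups. CMPK2, the nucleotide kinase that starts 829 bases from RSAD2 on the opposite strand, was at 4.39, 4.32 and 4.61 TPM and then at 4.68, 5.3 and 4.41 TPM. Those groups overlapped, and the change of 0.09 ± 0.11 was not called, with an interval from -0.16 to 0.34. The annotated spans of RSAD2 and CMPK2 overlap. ISG20, an exonuclease that degrades RNA, rose from 3.24, 4.3 and 5.47 TPM to 12.1, 10.8 and 11.3 TPM (1.24 ± 0.15). PLSCR1, a phospholipid scramblase, was at means of 107.4 ± 7.27 and 97.7 ± 2.67 TPM (SD, n = 3), overlapped between the groups and was not called.

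Among the remaining members all rose in LC-2/ad. XAF1, a pro-apoptotic antagonist of XIAP, went from 4.53, 3.84 and 4.02 TPM to 16.8, 16.9 and 19.5 TPM (1.87 ± 0.098). TRIM22, an antiviral ubiquitin ligase, went from 14.9, 12.1 and 13.6 TPM to 44.5, 57.0 and 47.4 TPM (1.80 ± 0.11). IFI27, a small mitochondrial protein, went from 28.9, 31.6 and 28.1 TPM to 86.7, 122.3 and 98.8 TPM (1.75 ± 0.12). The treated values of these 3 genes were each far above the parent range, though IFI27 varied among treated libraries. IFI6, a relative of IFI27, rose by 1.46 ± 0.21, IFI35 by 1.20 ± 0.12, IFI44 by 1.03 ± 0.077 and its neighbour IFI44L by 0.74 ± 0.19. SAMD9L and SAMD9, paired growth and antiviral factors on chromosome 7, rose by 1.31 ± 0.14 and 0.56 ± 0.096. PARP14, an ADP-ribosyltransferase, rose by 0.64 ± 0.059. PARP9 and DTX3L, which form a complex and whose starts lie 339 bases apart on opposite strands, rose less, by 0.24 ± 0.065 and 0.29 ± 0.069. SP100, a protein of nuclear bodies, rose by 0.57 ± 0.073. TRIM22 overlaps TRIM5 on the opposite strand, and PARP9 and DTX3L overlap each other on opposite strands, so strand assignment bears on them too. It also bears on IRF1 and EIF2AK2. On the opposite strand IRF1 overlaps a protein-coding gene without a symbol here (up to 8.27 TPM) and EIF2AK2 overlaps GPATCH11 (up to 8.51 TPM).

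**Figure D3:**
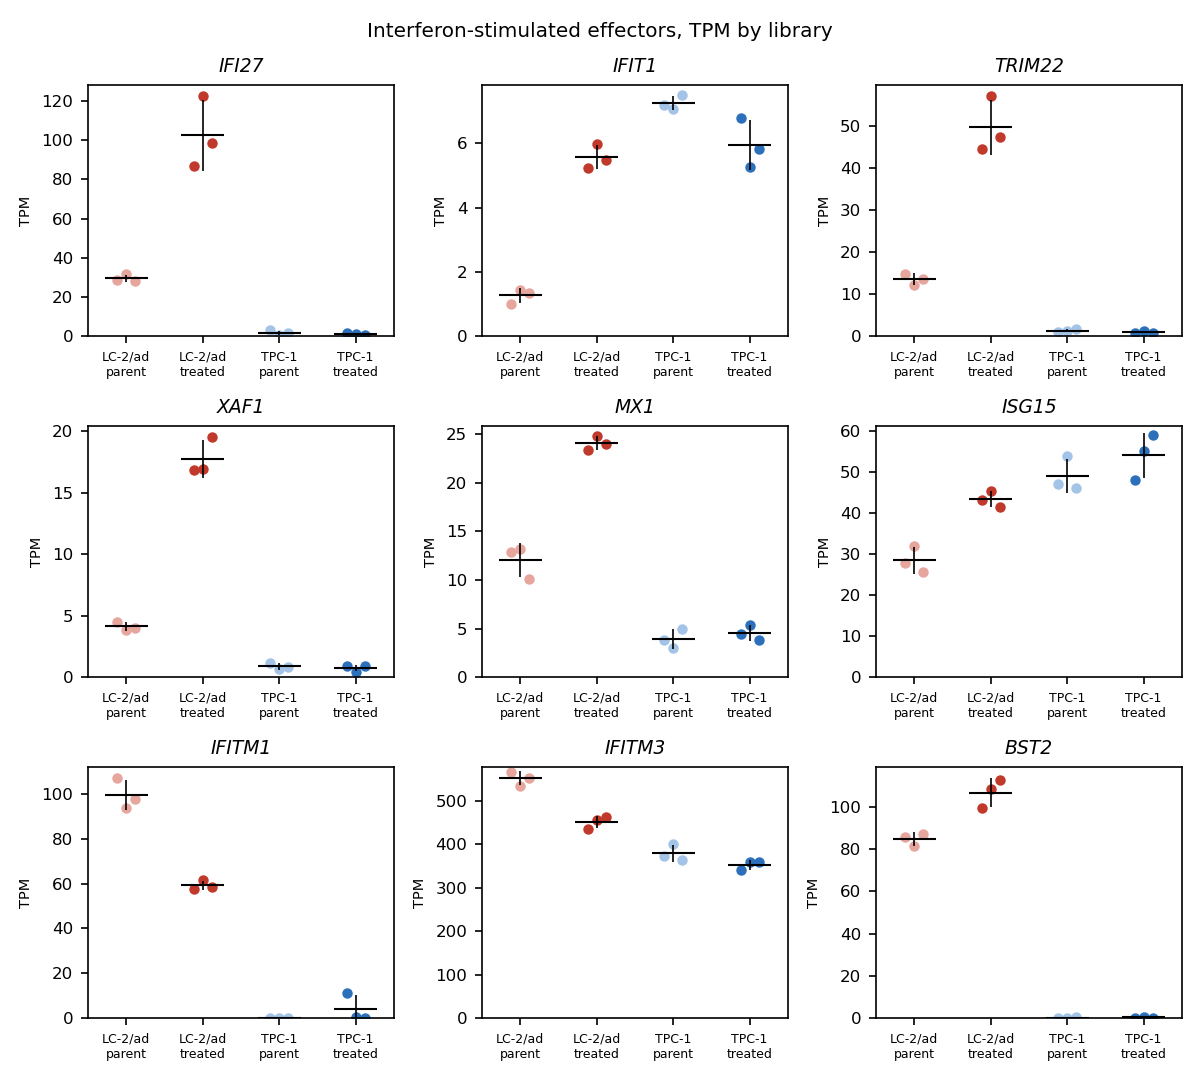
TPM (y axis, linear from 0) in each library (points) of 9 effectors in the 4 groups, with the mean (horizontal line) and SD (vertical line). Within LC-2/ad, IFI27, IFIT1, TRIM22, XAF1, MX1, ISG15 and BST2 are higher in treated than in parent libraries and IFITM1 and IFITM3 are lower; mean ISG15 and IFIT1 levels are higher in both TPC-1 groups than in treated LC-2/ad, and 1 treated TPC-1 library holds IFITM1 at 11.3 TPM.

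Few of the same 45 genes were called in TPC-1. There 39 were tested, since IRF7, OASL, BST2, RSAD2, CMPK2 and XAF1 had a mean TPM under 1. Of the 39, 2 rose, against 3.75% of all 12825 genes tested, and 0 fell, against 1.21%. At an unadjusted p under 0.05 limma gave 5 higher and 2 lower. The median log2 fold change of the 39 was 0.05, and so was that of all genes. Treated values all lay above parent values in 7 of the 39 (16.6% of all tested genes) and below in 4 (9.23%). Of the 45, 34 overlapped, all of those not tested among them. The 95% interval of the log2 fold change lay wholly under 1 for 38 of the 39 and wholly under 0.5 for 26. Of all TPC-1 calls over all genes 75.6% were higher, and 63.0% with median-of-ratios scaling.

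The 2 risers in TPC-1 were IRF1 and GBP1, which also rose in LC-2/ad. IRF1 was at 25.9, 21.7 and 21.8 TPM in parent libraries and at 30.1, 33.5 and 33.0 TPM in treated ones. GBP1 was at 15.5, 15.2 and 17.5 TPM and then at 23.8, 21.3 and 22.8 TPM. Both were without overlap, with log2 fold changes of 0.46 ± 0.091 (adjusted p = 0.0233) and 0.47 ± 0.089 (adjusted p = 0.0197) in limma with Benjamini-Hochberg adjustment. Neither call held throughout. Both were lost without parent library 2 and without treated library 3. IRF1 was also lost without parent library 3, without treated library 2, without a variance trend and with a block for the replicate number. GBP1 was also lost without treated library 1. Over all settings the adjusted p in limma reached 0.106 for IRF1 and 0.0765 for GBP1. The IRF1 values are also uncertain because a protein-coding gene on the opposite strand overlaps IRF1.

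Several members missed the threshold in TPC-1 with groups that did not overlap. IFIH1 went from 6.65, 5.73 and 5.57 TPM to 8.6, 7.5 and 7.38 TPM (0.34 ± 0.12), and DDX60 from 3.33, 3.95 and 3.8 TPM to 5.24, 5.62 and 5.03 TPM (0.42 ± 0.13). Their adjusted p-values were 0.147 and 0.0968 (limma with Benjamini-Hochberg adjustment). IFIT1, at 7.2, 7.07 and 7.51 TPM and then at 6.8, 5.27 and 5.82 TPM, lay lower after treatment but was not called (-0.25 ± 0.12). IFITM1 was listed at 0, 0.101 and 0 TPM in parent libraries and at 11.3, 0.491 and 0.103 TPM in treated ones. Treated library 1 alone carried IFITM1 past the filter and set its fitted change of 1.40 ± 0.76, which was not called. Without that library IFITM1 was not tested.

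The parent levels of the members also differed between the lines, but the tables were normalized separately and levels were not tested across them. The parent mean was higher in LC-2/ad for 27 members and higher in TPC-1 for 18. Of the 45, 34 were at 1 TPM or more in all 6 TPC-1 libraries. IFIT1 had a parent mean of 1.27 ± 0.23 TPM in LC-2/ad and 7.26 ± 0.224 TPM in TPC-1 (SD, n = 3), and after treatment LC-2/ad stood at 5.58 ± 0.377 TPM. IFI6 stood at 6.27 ± 1.77 and 18.7 ± 0.498 TPM in parent cells, and treated LC-2/ad cells reached 18.9 ± 4.01 TPM. For these 2 genes the treated lung line stood near or below the level of the untreated thyroid line. BST2 and IFITM1, averaging 84.7 and 99.3 TPM in untreated LC-2/ad, were under 1 TPM in TPC-1 parent cells.

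The response itself differed between the lines for 27 of the 39 members tested in both, against 36.6% of all genes tested. It was smaller in TPC-1 for 25, against 14.4% of 11996 genes, and larger in TPC-1 for 2, OAS3 and IFITM3, against 22.2%. The median difference, TPC-1 minus LC-2/ad, was -0.63 over the members and 0.04 over all genes. Of all calls of a difference over all genes 60.6% were larger in TPC-1, and 47.3% with mitochondrial genes removed. Of the 35 members that rose in LC-2/ad, 30 were tested here and 25 had the smaller response in TPC-1, against 46.1% of the 3486 genes that rose in LC-2/ad and were tested here. The LC-2/ad values enter both calls, so a smaller response in TPC-1 is favoured among its risers. The fitted IFITM1 difference of 2.13 ± 0.88 was not called (adjusted p = 0.0766, limma interaction with Benjamini-Hochberg adjustment). It rested on TPC-1 treated library 1, and was called with pseudocount 5 and without TPC-1 treated library 2 or 3. Among the called differences, the widest on this scale were IFI27 with -2.12 ± 0.35, TRIM22 with -2.01 ± 0.21, OAS2 with -1.79 ± 0.28 and IFIT1 with -1.79 ± 0.17. Their adjusted p-values were 0.000432, 9.91e-06, 0.000284 and 5.24e-06 (limma interaction with Benjamini-Hochberg adjustment). The order depended on the pseudocount. With pseudocount 0.1 the OAS2 difference was the widest of these called ones, at -2.81. With pseudocount 5 those of OAS2 and IFIT1 shrank to -0.735 and -0.92. IFI27 was at -2.40 with pseudocount 0.1 and at -1.77 with pseudocount 5. TRIM22 and IFI27 were near the filter in TPC-1, with parent means of 1.31 ± 0.387 and 1.84 ± 1.04 TPM (SD, n = 3), where log2(TPM + 1) compresses change. OAS3 and IFITM3 had differences of 0.48 ± 0.15 and 0.18 ± 0.062, both of which were lost with mitochondrial genes removed and without LC-2/ad parent library 3. OAS3 was also lost without TPC-1 parent library 2. IFITM3 was also lost without LC-2/ad parent library 1 or treated library 1 or 2, and without TPC-1 parent library 1 or 3 or treated library 2 or 3. The IFITM3 call was further lost with median-of-ratios scaling, without a variance trend and with a block for the replicate number, with adjusted p-values up to 0.245. The highest for OAS3 was 0.0587. For IRF1 and GBP1, the risers of both lines, the differences of -0.27 ± 0.10 and -0.26 ± 0.12 did not pass, with intervals from -0.50 to -0.05 and from -0.53 to 0.01.

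Beside the members, 94 further genes of the interferon pathway were listed by role, also with earlier results of these data known. In LC-2/ad 66 were tested, of which 40 rose and 7 fell, and in TPC-1 60 were tested, of which 3 rose and 0 fell. Over all genes tested 30.6% rose and 24.4% fell in LC-2/ad, and 3.75% and 1.21% in TPC-1, so the share of rises in TPC-1 was near that of all genes. At an unadjusted p under 0.05 limma gave 12 higher and 4 lower in TPC-1. The response was smaller in TPC-1 for 23 of the 60 tested in both lines and larger for 6, against 14.4% and 22.2% of all genes. No interferon gene passed the filter in either line: of 22 listed, 13 were at 0 in all 12 libraries, and the highest value was 0.838 TPM, for IFNE in a TPC-1 parent library. IFNL1, which encodes a type III interferon, was listed at 0.0915, 0.0929 and 0 TPM in LC-2/ad parent libraries and at 0.115, 0.574 and 0.23 TPM in treated ones, too low to test.

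Of 6 interferon receptor chains, 4 rose in LC-2/ad, against 30.6% of all genes tested. IFNGR1 of the interferon gamma receptor rose by 0.48 ± 0.060, IL10RB of the type III receptor by 0.31 ± 0.058, and IFNAR2 of the type I receptor by 0.24 ± 0.086. The IFNAR2 call was lost in 9 of 14 other settings, median-of-ratios scaling and leaving out any library but treated library 1 among them, with adjusted p-values up to 0.143 in limma with Benjamini-Hochberg adjustment. IFNAR1 and IFNLR1 were not called in either line. IFNGR2 rose in both lines and was the only receptor chain called in TPC-1, where it went from 8.28, 7.06 and 6.59 TPM to 15.3, 13.8 and 12.7 TPM. Those groups did not overlap, and the log2 fold change was 0.85 ± 0.12, beside 0.22 ± 0.069 in LC-2/ad. In LC-2/ad that call was lost with median-of-ratios scaling and without parent library 1, parent library 2, treated library 2 or treated library 3 (adjusted p up to 0.0845, limma with Benjamini-Hochberg adjustment). The IFNGR2 response was larger in TPC-1 by 0.62 ± 0.13 (adjusted p = 0.00298, limma interaction with Benjamini-Hochberg adjustment). Of 4 other kinases and STATs listed, 3 rose in LC-2/ad, against 30.6% of all genes tested. TYK2 (0.55 ± 0.070), JAK1 (0.43 ± 0.045) and STAT3 (0.34 ± 0.048) rose and JAK2 was not called (0.40 ± 0.20). In TPC-1 0 of these 4 were called, with 2 higher and 0 lower at an unadjusted p under 0.05 in limma.

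Of 8 inhibitors of the pathway, the phosphatase PTPN6 rose in LC-2/ad (0.39 ± 0.067), and the phosphatase PTPN11 (-0.415 ± 0.057) and SOCS3, which blocks JAK kinases (-0.32 ± 0.072), fell. These counts were near or under those that the shares over all genes would give for a list of this size. In TPC-1 0 of 7 were called, with 1 higher and 1 lower at an unadjusted p under 0.05 in limma. Of 14 nucleic acid sensors and adaptors, 6 rose and 2 fell in LC-2/ad, counts near those that the shares over all genes would give for a list of this size. DHX58, which encodes the RNA helicase LGP2, rose by 1.31 ± 0.17, TLR3, an endosomal sensor of double-stranded RNA, by 1.13 ± 0.079, and RIGI, a cytosolic RNA sensor, by 0.83 ± 0.074. The sensors of DNA AIM2 and IFI16 fell, by 1.06 and 0.56 on the log2 scale. Genes of DNA sensing did not all fall. The DNA sensor CGAS was not called (-0.21). STING1, an adaptor of DNA sensing, was at 39.5, 42.8 and 46.5 TPM in parent libraries. In treated ones it was higher without overlap, at 67.8, 63.4 and 62.7 TPM. AIM2 went from 9.58, 9.79 and 11.4 TPM to 4.15, 4.58 and 4.47 TPM and was listed at 0 in every TPC-1 library. In TPC-1 0 of 13 sensors and adaptors were called, with 1 higher and 1 lower at an unadjusted p under 0.05 in limma.

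A further 35 interferon-stimulated genes were listed. In LC-2/ad 31 were tested, 24 rose and 3 fell, against 30.6% and 24.4% of all genes tested. Their median log2 fold change was 0.58. The largest rises were of EPSTI1 (1.49 ± 0.22), the ADP-ribosyltransferase PARP10 (1.16 ± 0.086), TMEM140 (1.02 ± 0.090) and the trypanolytic apolipoprotein APOL1 (0.98 ± 0.096). In TPC-1 1 of 27 rose, near the 3.75% of all genes tested. It was PARP12, an ADP-ribosyltransferase of stress granules, from 33.3, 28.3 and 32.0 TPM to 51.9, 42.5 and 42.1 TPM (0.53 ± 0.10). PARP12 also rose in LC-2/ad (0.69 ± 0.069). In TPC-1 its call was lost when parent library 2, parent library 3 or treated library 1 was left out. It was also lost without the filter on low values and without a variance trend, with adjusted p-values up to 0.0911 in limma with Benjamini-Hochberg adjustment. Of the interferon regulatory factors outside the members, listed with the cofactor IRF2BP2, IRF5 and IRF2 rose in LC-2/ad by 0.29 ± 0.094 and 0.22 ± 0.058. The IRF5 call was lost without parent library 2 or 3 or treated library 1 or 3 and with median-of-ratios scaling (adjusted p up to 0.0987, limma with Benjamini-Hochberg adjustment). IRF5 rose in TPC-1 by 0.50 ± 0.11, a call lost on leaving out any single library. That call was also lost without the filter and with a block for the replicate number (adjusted p up to 0.124, limma with Benjamini-Hochberg adjustment).

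**Figure D4:**
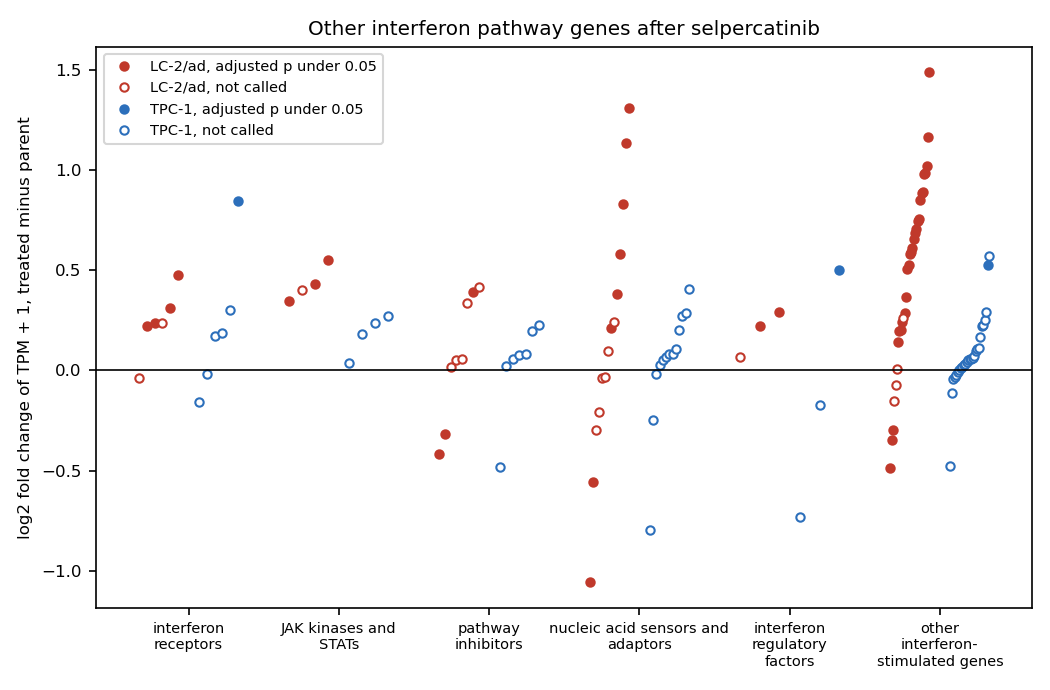
Log2 fold change of TPM + 1 after selpercatinib (y axis) for tested genes of 6 pathway lists (x axis), 1 point per gene, sorted by value within a list, in LC-2/ad (red) and TPC-1 (blue); filled points were called. Filled red points reach 1.49, for EPSTI1, and the filled blue points are IFNGR2, IRF5 and PARP12.

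Promoter motifs were found among members that rose, fell or were not called in LC-2/ad. Of the 36 members with a window, 25 held a response element and 11 a gamma-activated site, 7 held both and 7 neither. A response element was found in 18 of the 28 risers with a window, in all 3 members with a window that fell (IFITM1, IFITM3 and OAS3), and in 4 of the 5 that were not called (EIF2AK2, HERC5, IFIT5 and PLSCR1). The median log2 fold change in LC-2/ad was 0.59 for the 25 members with the element and 0.73 for the 11 without. STAT2, IRF9, IRF1, XAF1, SAMD9L and IFI35 were among the 10 risers with no exact match to the response element in these windows. Of those named, IRF9, IRF1 and IFI35 held a gamma-activated site. The absence of the exact letters from a 300-base window says nothing about elements elsewhere, or about elements within it that are spelled otherwise.

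**Figure D5:**
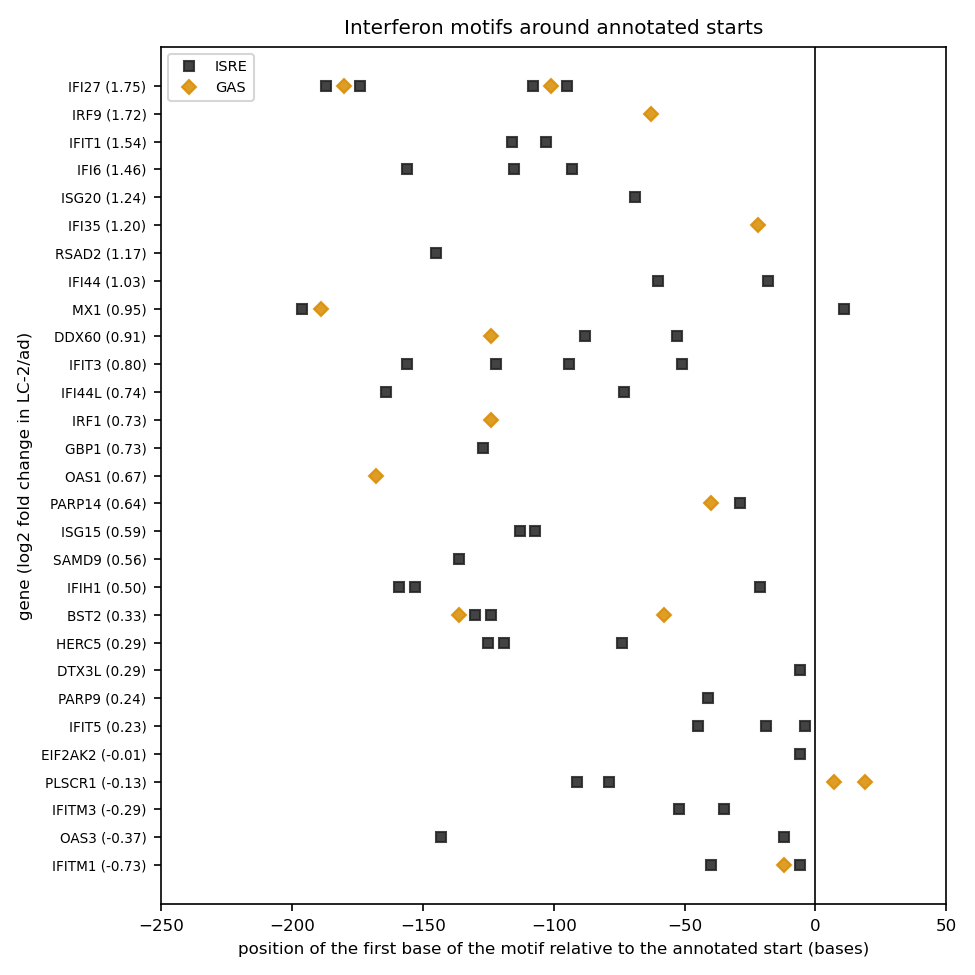
Position of the first base of each response element (ISRE, black squares) and gamma-activated site (GAS, orange diamonds) relative to the annotated start (x axis, bases) in members with a match (y axis, ordered by log2 fold change in LC-2/ad, given in brackets). All windows of a gene are drawn together, so a match can appear at 2 positions, as in IFI27; matches are spread over members at the top, such as IFI27 at 1.75, and at the bottom, such as OAS3 at -0.37.

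Markers of leukocytes were low, while single markers of other cell types were not. The summed level of 10 leukocyte markers was 2.91 to 3.55 TPM in LC-2/ad parent libraries and 3.69 to 4.42 TPM in treated ones, and 0.278 to 1.83 TPM in TPC-1. MS4A1 was at 0 throughout, CD3E and CD3D were at 0 in treated LC-2/ad libraries, and PTPRC was at means of 0.487 and 0.514 TPM. ITGAM, the single leukocyte marker averaging 1 TPM or more in a group, rose in LC-2/ad by 0.73 ± 0.24 on the log2 scale, a call lost in 5 of 13 other settings. Of 5 markers of plasmacytoid dendritic cells, LILRA4 was at 0 in every library, and neither CLEC4C nor GZMB was detected in treated LC-2/ad libraries. Their sum was 0.609 to 2.54 TPM in parent and 1.37 to 2.85 TPM in treated LC-2/ad libraries. It was 12.3 to 18.1 TPM in TPC-1, carried by TCF4, which is not specific to those cells. Endothelial markers (4) summed to 14.5 to 16.3 TPM in parent and 14.6 to 17.8 TPM in treated LC-2/ad libraries, and fibroblast markers (5) to 28.9 to 34.0 and 35.5 to 40.9 TPM. KDR, at means of 12.4 and 11.5 TPM, and COL1A1, at 31.3 and 36.2 TPM, made up most of these sums and were not called. The endothelial cadherin CDH5 rose from 1.96, 1.98 and 2.27 TPM to 3.15, 4.03 and 3.72 TPM (0.59 ± 0.13), and the fibroblast proteoglycan LUM from 0.508, 0.516 and 0.46 TPM to 2.75, 1.57 and 2.05 TPM (1.05 ± 0.19). Both were without overlap and moved with the members that rose. The other markers of these 2 cell types were too low to test and were mixed. PECAM1 was lower after treatment without overlap, from 1.01, 0.571 and 0.63 TPM to 0.227, 0.178 and 0.327 TPM. DCN (means of 0.217 and 0.178 TPM) and PDGFRB overlapped. VWF (0.151 and 0.453 TPM) and COL1A2 (0.0236 and 0.091 TPM) were higher without overlap. The part of these transcripts, or of the mitochondrial share, in the member results was not tested. With mitochondrial genes removed 36 members were called higher in LC-2/ad.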

How the data were processed

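Values were the authors' deposited TPM per gene, in 1 table per line. Per the submitters' processing notes bcl2fastq 2.20.0, Salmon and GRCh38 were used, with roles, annotation, strand setting and filters not given in the sources used here. Columns were matched to samples by the labels, and no deposited column was left out. Identifiers were matched to symbols (34436 of 37247) and to GENCODE 29 coordinates. Within each line log2(TPM + 1) was tested with limma 3.58.1 in R 4.3.3 (lmFit, eBayes with a variance trend, two-sided) for genes averaging 1 TPM or more over its 6 libraries. The difference of the responses was an interaction over 12 libraries for genes averaging 1 TPM or more in each of the lines. The members, lists, tests and markers were chosen with earlier results of these data known. All members may be named; of the other lists, receptors, JAK kinases and STATs, and up to 4 called genes per list and line with the largest change. IFI16, CGAS, STING1, IFNE, IFNL1, IRF2BP2 and individual markers of cell types were named after their values were seen. Some genes of the pathway and marker lists are not reported here. Each alternative altered a single step: pseudocount 0.1, pseudocount 5, the filter dropped or set at 5 TPM, median-of-ratios scaling, mitochondrial genes removed, a variance without trend, a block for the replicate number, and each library left out. The tests were tried on simulated data. Tables used Python 3.11.15 and pandas 2.3.3, figures matplotlib 3.10.9.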

Additional observations from a re-analysis of the deposited data

Results flagged for a closer look

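The genes considered here are the 39 members tested in both lines and IFNGR2, the one gene outside the members whose difference the report gives. For 28 of them the log2 fold change after selpercatinib differed between the lines in the limma interaction over 12 libraries, at a Benjamini-Hochberg adjusted p under 0.05. Differences are given as TPC-1 minus LC-2/ad, on the scale of log2(TPM + 1). Among signalling factors it was smaller in TPC-1 for STAT2 -0.97 and IRF9 -1.47, and larger for IFNGR2, which is not a member, at 0.62. In the IFIT and OAS families the differences were IFIT1 -1.79, IFIT2 -1.11, IFIT3 -0.82, OAS1 -0.93, OAS2 -1.79 and OAS3 0.48. For the RNA helicase and the ISG15 system they were DDX60 -0.48, ISG15 -0.46, UBE2L6 -0.35 and HERC6 -0.63. The GTPases gave MX1 -0.77, MX2 -1.17 and GBP2 -1.16, and IFITM3 and the nuclease ISG20 gave 0.18 and -0.87. The SAMD9 pair, the ADP-ribosyltransferases and the nuclear body and TRIM genes gave SAMD9 -0.68, SAMD9L -1.11, PARP9 -0.37, PARP14 -0.62, SP100 -0.72 and TRIM22 -2.01. The remaining interferon-induced proteins gave IFI27 -2.12, IFI6 -1.37, IFI35 -1.22 and IFI44 -1.06. Over all tested genes 36.6% passed the same test. The calls of DDX60, MX2, OAS1, PARP9, OAS3 and IFITM3 were lost in at least 1 other setting. For OAS1 this was without LC-2/ad parent library 3, LC-2/ad treated library 2, TPC-1 parent library 2 or TPC-1 treated library 3 (adjusted p up to 0.0564), and for MX2 with pseudocount 0.1 or the replicate block (up to 0.123). DDX60 and PARP9 were each lost on leaving out libraries of both lines, DDX60 in 8 such settings and with the replicate block, with adjusted p up to 0.0998, and PARP9 in 9 with up to 0.0741, all from limma with Benjamini-Hochberg adjustment. The libraries were, for PARP9, all but LC-2/ad treated 3, TPC-1 parent 2 and TPC-1 treated 1, and for DDX60 all but LC-2/ad parent 3, LC-2/ad treated 3, TPC-1 parent 1 and TPC-1 treated 2. The other 21 members and IFNGR2 were called in every setting in which they were tested. Groups of 3 libraries were not tested for single deviating libraries.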

How the results depend on the processing

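No called direction reversed. Of 35 rises in LC-2/ad 34 were called in each of the 14 other settings that tested them and IRF7 was not; of 4 falls IFITM1 and IFITM3 were, and OAS3 and USP18 were not. Neither TPC-1 rise was. With 1 library left out the falls numbered 2 (without LC-2/ad parent library 3) to 5. There were 6 falls with median-of-ratios scaling and 5 with the filter at 5 TPM. Without the filter, with mitochondrial genes removed and without a variance trend there were 3 each. In TPC-1 the 2 rises became 0 without the filter, 1 without a variance trend and 1 with the replicate block, and 0 to 2 with 1 library left out (0 without parent library 2 or treated library 3). Of the other pathway genes in TPC-1, 3 higher became 1 to 3 (1 without parent library 2 or 3 or treated library 1) and 0 lower became 0 to 1 with 1 library left out; 3 were lower with median-of-ratios scaling and 1 each with mitochondrial genes removed and with the replicate block. Responses larger in TPC-1 went from 2 to 4 with pseudocount 5, 0 with mitochondrial genes removed, 1 with the replicate block and 0 to 4 with 1 library left out (0 without LC-2/ad parent library 3, 4 without TPC-1 treated library 3). Smaller responses went from 25 to 16 with the filter at 5 TPM, where fewer genes are tested. The cause of the other changes was not tested. Same-numbered libraries did not deviate together (correlations of -0.048 to 0.054), so the block, which gave 34 rises and 4 falls in LC-2/ad, is no paired analysis. TPM keep no depth, so counting error is unknown, and with 3 libraries a group small changes can be missed.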
